A study of Arabidopsis thaliana with 8 samples.

Results

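GH3.3 (AT2G23170) and GH9C2 (AT1G64390) were followed in Arabidopsis thaliana seedlings as a pair of growth-related genes whose mRNAs differed in opposite directions after a heat shock. The 2 genes were chosen by the direction of their heat effect in these arrays, by gene symbol, out of 13356 genes with a probe set that the platform annotation assigns to 1 gene. Each had 1 such probe set. Because the heat effect chose them, it is given below as a description with no test. The tests concern translation efficiency at each temperature, a contrast that the choice did not use.

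Wild-type seedlings of ecotype Columbia-0 were grown on plates for 7 days at 22°C and either frozen directly or held at 38°C for 45 min. Total mRNA and polysome-bound mRNA, the latter from the polysomal fractions of a sucrose gradient, came from the same seedling samples and were hybridised to Affymetrix ATH-1 arrays. There were 4 groups of 2 arrays (total or polysome-bound mRNA at 22°C or 38°C). Values are log2 signals from the Robust Multi-Array method (RMA), and the polysome-bound values at 38°C also carry a factor, common to all probe sets of an array, for the lower polysome content of the heated seedlings. The factor was -0.84 and -0.89 on the log2 scale in replicates 1 and 2. Mean array signals were accordingly 5.30 and 5.25 on those 2 arrays and between 6.15 and 6.18 on the other 6. The material was whole seedlings. Of 9 leaf markers 1 had a named probe set, RCA, the activase of Rubisco. RCA was at 13.59 to 14.25 on the 8 arrays with the factor divided out. Among root markers 0 of 9 had a named probe set, and among markers of organs that seedlings lack 0 of 11. The tissue label could therefore be checked for leaf only. In such whole-plant RNA, fewer cells of a type and less RNA per cell cannot be told apart.

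The GH3 proteins act on the plant hormone auxin and on related acids. GH3.3 is an acyl-acid-amido synthetase that joins indole-3-acetic acid to amino acids, which takes active auxin out of the hormone pool. GH3 genes of this kind are classic early auxin response genes, so their mRNA both follows auxin and encodes an enzyme that lowers it. The GH9 proteins are endo-1,4-beta-glucanases of the plant cell wall. The A members are anchored in a membrane, as is KORRIGAN, which works with cellulose synthesis. The B members are secreted, and the C members, such as GH9C2, are secreted with a carbohydrate-binding module at their end.

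GH3.3 mRNA was higher at 38°C than at 22°C in both RNA populations. In total mRNA its signal was 6.31 and 5.72 in the 2 replicates at 22°C and 7.70 and 6.72 at 38°C. In polysome-bound mRNA it was 6.14 and 5.44 at 22°C and 7.23 and 6.72 at 38°C, as deposited. The heated arrays lay above the control arrays in both populations with no overlap, although the lower heated array of total mRNA was close to the higher control array, at a distance of 0.41 on the log2 scale. The mean heat effect was 1.195 in total mRNA (SE 0.40, n = 2 arrays per group, 2.29-fold) and 1.19 in polysome-bound mRNA (SE 0.40, n = 2, 2.27-fold). With the polysome-content factor divided out, that is relative to the average mRNA on polysomes, the heated arrays were at 8.07 and 7.61 and the effect was 2.05 (4.15-fold). The spread between replicates was large. Replicate 1 was above replicate 2 in all 4 groups, by 0.51 to 0.98, and the SD within a group was 0.36 to 0.69.

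GH9C2 mRNA was far lower at 38°C. Its total mRNA signal was 9.24 and 9.56 at 22°C and 5.60 and 5.67 at 38°C. Its polysome-bound signal was 8.84 and 9.21 at 22°C and 4.49 and 4.71 at 38°C. The groups were widely separated in both populations, with differences of -3.96 to -3.57 over the pairs of total arrays and of -4.72 to -4.13 over the pairs of polysome-bound arrays. The mean heat effect was -3.77 in total mRNA (SE 0.18, n = 2 arrays per group, 13.6-fold lower) and -4.43 in polysome-bound mRNA (SE 0.18, n = 2, 21.5-fold lower). With the factor divided out the heated polysome-bound arrays were at 5.33 and 5.60 and the effect was -3.56 (11.8-fold lower). Here replicate 2 was above replicate 1 in all 4 groups, the reverse of GH3.3, but by 0.07 to 0.37 only.

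**Figure D1:**
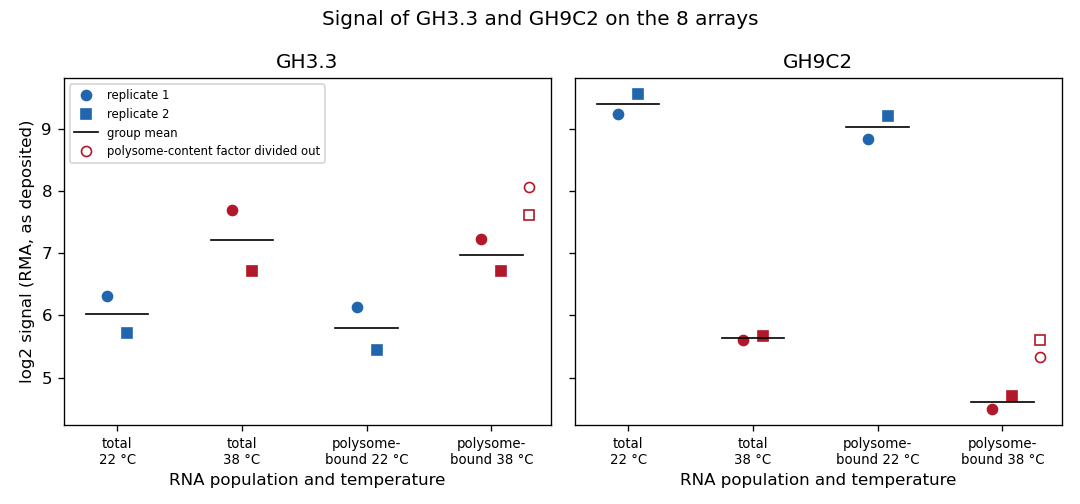
Log2 signal (RMA, as deposited) of GH3.3 and GH9C2 on each of the 8 arrays by RNA population and temperature; circles are replicate 1, squares replicate 2, blue is 22°C, red 38°C, lines are group means, and open symbols show the heated polysome-bound arrays with the factor divided out. GH3.3 lay at 5.44 to 6.31 at 22°C and 6.72 to 7.70 at 38°C, and GH9C2 at 8.84 to 9.56 and 4.49 to 5.67.

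Over all 22810 probe sets, 4.63% were called higher and 7.06% lower in total mRNA after heat (limma, Benjamini-Hochberg adjusted p below 0.05 and at least 2-fold). In polysome-bound mRNA as deposited, 2.07% were called higher and 37.1% lower, and with the factor divided out 4.73% and 6.49%. The median over all probe sets was 0.03 in total mRNA and -0.85 in polysome-bound mRNA as deposited. Both genes were chosen by these contrasts, so nothing is read from their place in them.

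Translation efficiency was taken as polysome-bound over total mRNA, with the factor divided out at 38°C so that 0 stands for the array average. For GH3.3 it was -0.17 and -0.28 in the 2 seedling samples at 22°C and 0.37 and 0.89 in those at 38°C. Both heated samples thus lay above 0 and both control samples below it. The mean at 22°C was -0.23 (SE 0.40, 95% confidence interval -1.17 to 0.72, adjusted p = 0.997 from limma), and at 38°C it was 0.63 (SE 0.40, 95% confidence interval -0.32 to 1.58, adjusted p = 0.54). Neither passed the test. With the seedling sample as a block, which pairs the 2 RNA populations of 1 sample, the value at 38°C had an SE of 0.14 and an adjusted p of 0.00994 (limma), and the confidence interval ran from 0.33 to 0.94. At 1.55-fold it was still under the 2-fold limit, so the call did not change.

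For GH9C2 translation efficiency was -0.40 and -0.35 in the 2 samples at 22°C and -0.27 and -0.07 at 38°C, below 0 in all 4 samples. The means were -0.38 at 22°C (SE 0.19, 95% confidence interval -0.82 to 0.07, adjusted p = 0.678 from limma) and -0.17 at 38°C (SE 0.19, 95% confidence interval -0.61 to 0.28, adjusted p = 0.767). With the seedling sample as a block the adjusted p was 0.0716 at 22°C and 0.337 at 38°C. Neither gene was therefore called in either temperature. Among all probe sets, 0.0% were called at 22°C (0 of 22810, while 1973 had an unadjusted p below 0.05) and 0.741% at 38°C, and with the block 0.723% and 1.64%.

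**Figure D2:**
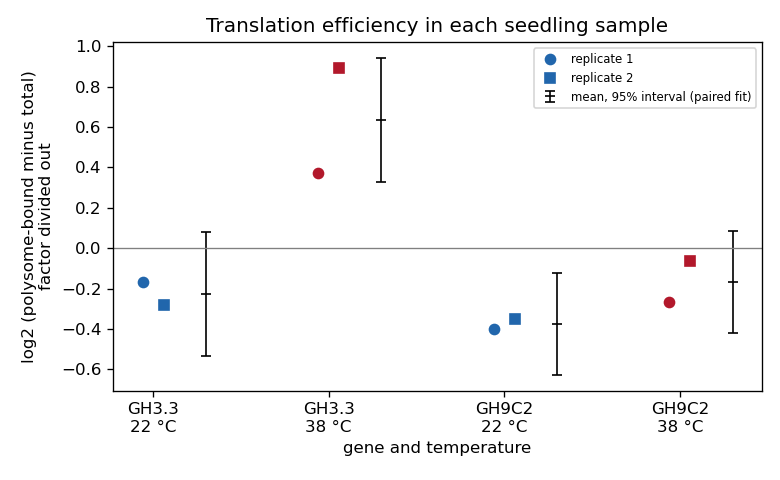
Translation efficiency, log2 (polysome-bound minus total mRNA, factor divided out), in each seedling sample by gene and temperature (circles replicate 1, squares replicate 2, blue 22°C, red 38°C), with the mean and its 95% confidence interval from the paired limma fit in black. The GH3.3 samples lay at -0.28 and -0.17 at 22°C and at 0.37 and 0.89 at 38°C, and the GH9C2 samples stayed below 0.

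Whether polysome association differed by more or less than the mRNA level was described without a test, since the difference is built from the 2 heat effects that chose the genes. The heat effect in polysome-bound mRNA, factor divided out, exceeded that in total mRNA by 0.86 for GH3.3 (SE 0.56, 95% confidence interval -0.48 to 2.20) and by 0.21 for GH9C2 (SE 0.27, 95% confidence interval -0.42 to 0.84). Both intervals hold 0 and also differences of over 1.5-fold. With the seedling sample as a block the difference for GH3.3 had a 95% confidence interval of 0.42 to 1.29 and that for GH9C2 one of -0.15 to 0.56. In this comparison 0.0% of all probe sets were called (0 of 22810, with 1332 at an unadjusted p below 0.05), and 1.36% with the block.

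The relative translation efficiency, the ratio of the heat change in polysome-bound mRNA to that in total mRNA on the linear scale with the factor kept, averaged 0.555 over genes. GH3.3 had 0.993, which is to say that its polysome-bound mRNA was higher at 38°C by about the same factor as its total mRNA, while for the average gene that ratio was 0.555. In replicate 1 it was 0.812 and in replicate 2 it was 1.21. The limit of 1.5 times the average, 0.832 by group means, was passed by group means and by replicate 2 (limit 0.833) but not by replicate 1 (limit 0.847). In all, 274 of 13356 genes, or 2.05%, were at or over that limit by group means and 83, or 0.621%, in each replicate. The ratio is built from the heat effects that chose the genes. Its place against the limit is therefore a description, and nothing is read from it. GH9C2 had 0.633, with 0.611 and 0.655 in the replicates, slightly above the average in both. As deposited, its polysome-bound mRNA was 21.5-fold lower at 38°C and its total mRNA 13.6-fold lower. With the factor divided out, GH9C2 was 11.8-fold lower on polysomes. Its heated signals were low, 5.60 and 5.67 in total mRNA and 5.33 and 5.60 on polysomes with the factor divided out. They lie under the level of 6 used below to mark dim probe sets. Its ratio and its translation efficiency at 38°C therefore say less than values from bright signals.

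Most other measured GH3 genes were not called in total mRNA. The fixed list held 13 GH3 genes of the RefSeq table, which need not be the whole family, and 7 had a named probe set, GH3.3 included. Of the other 6, 1 was called higher and 0 lower in total mRNA, against 4.63% and 7.06% of all probe sets. Their effects ran from -0.61 to 1.44 and their median was -0.13. Of the 6, 4 had a highest group mean under 6 on the log2 scale, and values near 0 from such dim probe sets say little. The 2 brighter ones were WES1 and GH3.17. The gene that rose was WES1 (GH3.5), which encodes a synthetase acting on auxin and on salicylic acid. Its total mRNA signal was 7.11 and 7.85 at 22°C and 8.59 and 9.24 at 38°C, with no overlap, a rise of 1.44 (limma adjusted p = 0.0356, SE 0.38, n = 2 per group). Its polysome-bound signal was 6.94 and 7.66 at 22°C and 8.07 and 8.67 at 38°C, a rise of 1.07 as deposited (adjusted p = 0.0336, limma). Leaving out replicate 1 of total mRNA at 22°C gave 1.06 (adjusted p = 0.164), leaving out replicate 1 at 38°C gave 1.76 (adjusted p = 0.0553) and leaving out replicate 2 at 38°C gave 1.11 (adjusted p = 0.146), so the call in total mRNA rested on these arrays. With only the 4 arrays of total mRNA in the fit it was lost too (adjusted p = 0.0559). That in polysome-bound mRNA was lost without replicate 1 at 22°C (0.71, adjusted p = 0.179) or replicate 2 at 38°C (0.77, adjusted p = 0.173).

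Among the remaining GH3 genes, GH3.1, another auxin-conjugating enzyme, had an effect of 0.50 in total mRNA (SE 0.13, adjusted p = 0.0296 from limma), under 2-fold and so not called. GH3.17, whose product joins auxin to glutamate, was at -0.52 (SE 0.48), GH3.9 at -0.61 (SE 0.26), AT5G51470 at -0.39 (SE 0.23) and AT1G23160 at 0.14 (SE 0.17), and none of these passed. In polysome-bound mRNA as deposited 3 of the 6 fell, GH3.9 (-1.56), AT5G51470 (-1.41) and GH3.17 (-1.39), in a comparison where 37.1% of all probe sets were called lower and their median was -0.85. Only GH3.17 of these had a highest group mean of at least 6, so that 1 fall remained with dim probe sets filtered out. With the factor divided out 0 of the 6 were called lower and 1, WES1, higher. The call of GH3.17 was also lost without replicate 2 of polysome-bound mRNA at 22°C (-1.13, adjusted p = 0.135) or replicate 1 at 38°C (-0.89, adjusted p = 0.166).

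Most other measured genes of the GH9 family were not called. The list held 23 GH9 genes of the RefSeq table, 13 of them with a named probe set. Of the 12 others, 0 were called higher and 1 lower in total mRNA, against 4.63% and 7.06% of all probe sets. Their effects ran from -1.69 to 0.58, with a median of -0.08. Of the 12, 9 had a highest group mean under 6 on the log2 scale, and a value near 0 from such dim probe sets says little about the heat effect of the gene. The 3 brighter ones were GH9B7, GH9B8 and GH9B13. The gene that fell was GH9B8, a secreted glucanase of the B class. Its signal was 7.09 and 7.79 at 22°C and 5.39 and 6.12 at 38°C in total mRNA, without overlap, so that it fell by 1.69 (limma adjusted p = 0.0188, SE 0.37, n = 2 per group). In polysome-bound mRNA it was 6.77 and 7.54 at 22°C and 4.88 and 4.52 at 38°C, and it fell by 2.46 as deposited (adjusted p = 0.00114) and by 1.59 with the factor divided out (adjusted p = 0.024, limma). The call in total mRNA was lost without replicate 2 at 22°C (-1.34, adjusted p = 0.101) or replicate 1 at 38°C (-1.32, adjusted p = 0.0941).

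The nearest relatives of GH9C2 in class C were not called. GH9C1 was at -0.04 in total mRNA (SE 0.57) and GH9C3 at -0.13 (SE 0.17). Both had a highest group mean under 6 on the log2 scale, so these values say little about a heat effect in class C. GH9A3, a membrane-anchored relative of KORRIGAN, was at 0.58 (SE 0.22, adjusted p = 0.0959 from limma). The B class genes other than GH9B8 ranged from GH9B7 at -0.48 (SE 0.21) through GH9B18 at -0.37, GH9B13 at -0.31, GH9B6 at -0.25, GH9B11 at -0.03, GH9B12 at 0.18 and GH9B16 at 0.22 to GH9B17 at 0.27 (SE 0.17). As deposited, 3 of the 12 fell in polysome-bound mRNA, where 37.1% of all probe sets were called lower, namely GH9B8, GH9B7 (-1.26) and GH9B18 (-1.2), and with the factor divided out only GH9B8 of the 12 did. GH9A4 and GH9B5 carry GH9 symbols but were outside the fixed list. They were at -0.10 and -0.03 in total mRNA, and GH9B5 fell by 1.17 in polysome-bound mRNA as deposited but not with the factor divided out (-0.30).

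**Figure D3:**
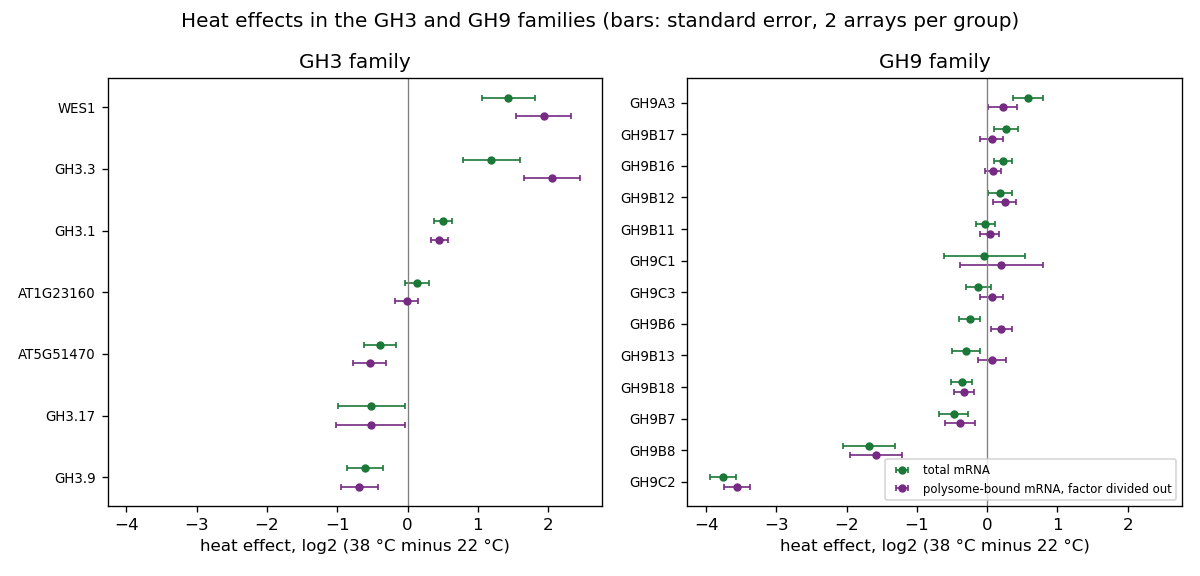
Heat effect, log2 (38°C minus 22°C), of every GH3 and GH9 list gene with a named probe set, in total mRNA (green) and in polysome-bound mRNA with the factor divided out (purple); points are means of 2 arrays per group and bars are standard errors. GH3.3 lay beside WES1 at the upper end of its family (1.195 and 1.44 in total mRNA), and GH9C2 (-3.77) was followed by GH9B8 (-1.69) while the other 11 GH9 genes lay between -0.48 and 0.58.

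In the wider auxin pathway few genes had a named probe set. Aux/IAA proteins repress the auxin response genes, and of 32 such genes 7 were measured. Of the 7, 6 had a highest group mean under 6, all but IAA18, so a lack of calls says little about them. In total mRNA 0 rose and 0 fell. In polysome-bound mRNA as deposited 1 fell, IAA18 (-1.26, adjusted p = 0.000808 from limma), against 37.1% of all probe sets. This count was 2 without replicate 1 at 22°C, without replicate 2 at 38°C or with cyclic loess. With the factor divided out IAA18 was at -0.39 and was no longer called, while IAA30, among the 6 dim ones, was called higher (1.02, adjusted p = 0.00233, limma). Of 20 auxin synthesis genes 4 were measured, all of them YUCCA flavin monooxygenases, which make indole-3-acetic acid, and all 4 with a highest group mean under 6. Of these, 0 were called in total mRNA, and YUC6 and YUC2 fell in polysome-bound mRNA as deposited (-1.1 and -1.09), with neither called after the factor was divided out (-0.23 and -0.22). The YUC2 fall was also under 2-fold without replicate 2 at 22°C (-0.92) or replicate 2 at 38°C (-0.91). The lists of the 7 amidohydrolases that release auxin from conjugates, of 80 SAUR genes, 23 auxin response factors, 15 transporters and 6 receptors had 0 named probe sets and were not analysed here.

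Genes of cell wall loosening moved in both directions. Expansins loosen the wall without cutting its polymers, and 19 of 38 were measured. Of these, 3 rose and 3 fell in total mRNA, against 4.63% and 7.06% of all probe sets, with a median of 0.01 and a range of -2.45 to 2.81. Of the 19, 7 had a highest group mean under 6 on the log2 scale, so a lack of calls says little about those 7. The rises were 2.81 for EXPA16 (SE 0.38, adjusted p = 0.00313 from limma) and 2.43 for EXLA1 (SE 0.33, adjusted p = 0.00314), and the third was EXLA2 (1.37), whose call was lost without replicate 1 at 22°C (1.14, adjusted p = 0.107) or replicate 1 at 38°C (1.11, adjusted p = 0.106). EXPA16 was dim at 22°C, at 4.45 and 4.26 in total mRNA, so the size of its rise is less certain. The falls were -2.45 for EXPA8 (SE 0.39, adjusted p = 0.00567), -2.21 for EXPA4 (SE 0.24, adjusted p = 0.0013) and -2.15 for EXPA15 (SE 0.17, adjusted p = 0.000417, limma). In polysome-bound mRNA as deposited, EXPA16 (2.17) and EXLA1 (1.68) rose and 5 expansins fell, of which EXPA4 (-3.65) and EXPA8 (-2.96) had the largest falls, before EXPA15, EXPA9 and EXPB3 (37.1% of all probe sets were called lower). Without replicate 1 at 38°C 8 expansins fell. With the factor divided out 3 rose and 3 fell, against 4.73% and 6.49% of all probe sets.

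The other wall lists held fewer calls. COB, a membrane-anchored protein needed for oriented cellulose deposition, was the 1 measured gene of 13 on the cellulose list and fell by 1.53 in total mRNA (SE 0.20, adjusted p = 0.00243 from limma), and was at -2.12 in polysome-bound mRNA as deposited and at -1.26 with the factor divided out, called in each. Of the 33 xyloglucan-modifying enzymes 10 were measured, 4 of them with a highest group mean under 6. In total mRNA 0 of the 10 rose and 0 fell, and XTH32 was at -1.76 (SE 0.56, adjusted p = 0.0603, limma). Leaving out either polysome-bound array at 22°C, which enters only the shared estimate of the spread, gave 1 fall. In polysome-bound mRNA as deposited, XTH32 (-2.94), XTH20 (-1.75) and XTH21 (-1.11) fell, against 37.1% of all probe sets, and with the factor divided out only XTH32 of the 10 was called (-2.07, adjusted p = 0.0403, limma). The XTH21 fall was lost without replicate 2 at 22°C (-0.88, adjusted p = 0.144) or replicate 1 at 38°C (-0.83, adjusted p = 0.153). Of 28 pectin enzymes 3 were measured, with 0 calls in total mRNA and a fall of ATPMEPCRB, a pectin methylesterase, in polysome-bound mRNA as deposited (-1.21), which was not called with the factor divided out (-0.34) or with dim probe sets filtered out. Without replicate 1 at 38°C 2 of the 3 fell. Of the 3 pectin enzymes, 2 had a highest group mean under 6. The 50 arabinogalactan protein genes had 0 named probe sets. None of the 64 probe sets of these auxin and wall lists was called in translation efficiency at either temperature, with or without the block. Over all probe sets 0.0% were called at 22°C and 0.741% at 38°C, and with the block 0.723% and 1.64%. The absence of calls is therefore not particular to these lists.

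**Figure D4:**
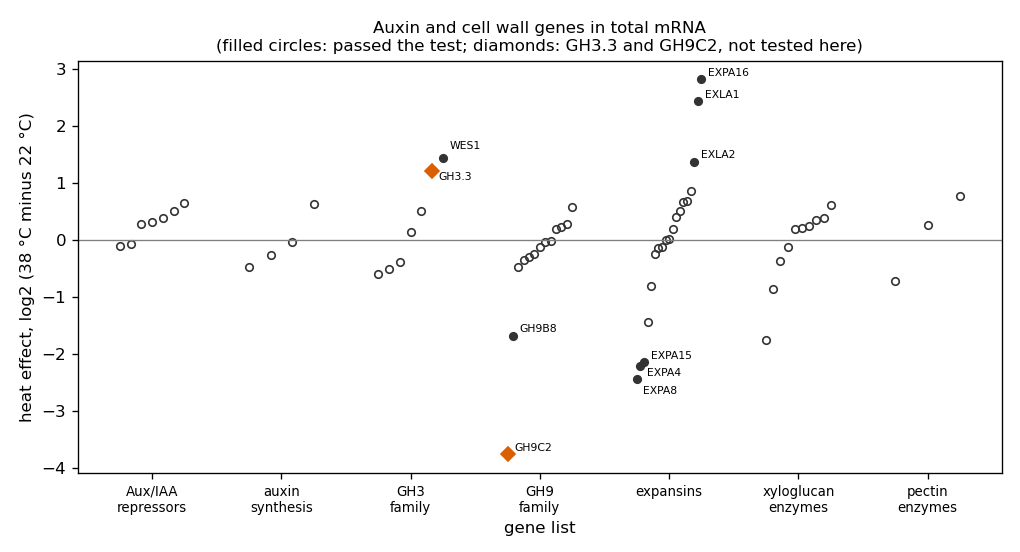
Heat effect in total mRNA, log2 (38°C minus 22°C), of each measured gene of 7 lists, sorted within a list; filled circles passed the test (limma, adjusted p below 0.05 and at least 2-fold), open circles did not, and the diamonds are GH3.3 and GH9C2, for which no test is given. GH9C2 lay at -3.77, below EXPA8 at -2.45, and the expansins spanned -2.45 to 2.81.

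The genes whose signal over the 8 arrays was most like each of the pair were found by the root mean square difference, after each probe set was centred on its own mean and with the factor divided out, among 13512 probe sets of 1 gene. For GH3.3 these were AT3G23170 (0.183, Pearson's r 0.985), AT3G28530 (0.184, r 0.982), AT1G27285 (0.229, r 0.969), the calmodulin-like gene CML38 (0.236, r 0.972) and AT1G73040 (0.246, r 0.971). The AT3G28530 probe set is of a kind marked as open to cross-hybridisation. In GH3.3 and all 5 of these, replicate 1 of total mRNA at 38°C stood above replicate 2, which a choice by likeness over the same arrays favours. For GH9C2 they were AT3G50270 (0.34, r 0.986), AT5G66985 (0.401, r 0.976), AT5G41140 (0.437, r 0.973), AT1G06000 (0.454, r 0.996) and AT5G45700 (0.454, r 0.972). The 8 arrays fall into 2 temperatures, so these correlations mainly describe a shared heat effect, and no p is given. Ranked by Pearson's r, 2 of the 5 genes for GH3.3 and 1 of the 5 for GH9C2 were named again.

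**Figure D5:**
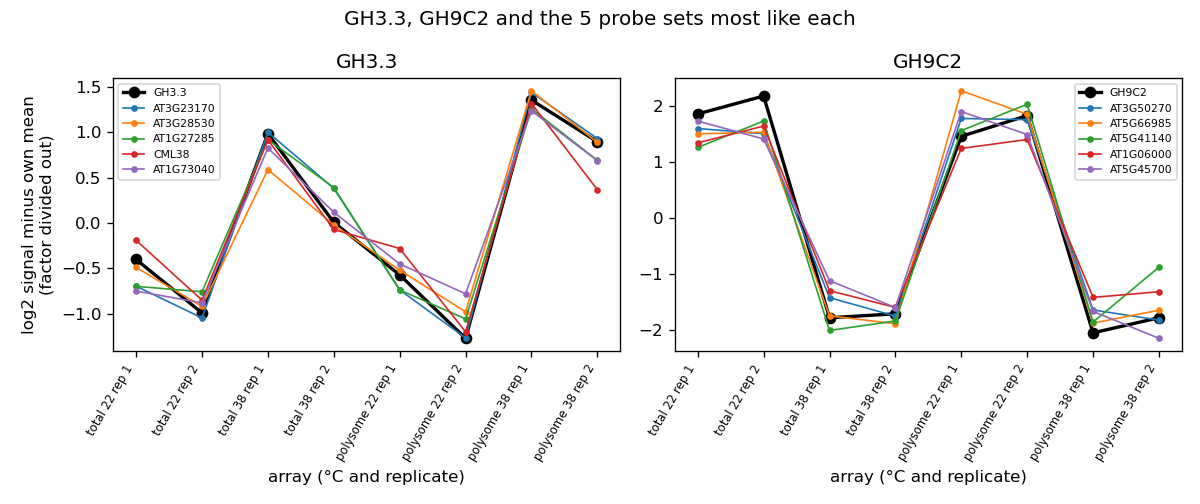
Log2 signal of GH3.3, GH9C2 (black) and the 5 probe sets most like each (colours) on the 8 arrays, each centred on its own mean, with the polysome-content factor divided out; lines join arrays of 1 probe set and carry no order in time. In both panels the 4 heated arrays were set apart from the 4 control arrays, upward beside GH3.3 and downward beside GH9C2.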

How the data were processed

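Total and polysome-bound mRNA of 22°C and 38°C seedlings was measured on 8 ATH-1 arrays, 2 per group. The deposited values are log2 signals: the authors summarised raw intensities by RMA (package affy) and multiplied the polysome-bound values at 38°C by that replicate's measured polysome content relative to 22°C. RMA makes arrays alike in distribution before that step, so differences are relative to the average mRNA. The files and the platform annotation name no genome build, and no coordinates or sequences are printed. No column was left unused. Of 22810 probe sets, 13513 had 1 gene in the platform annotation, 503 several and 8794 none listed. Of the 13513, 13436 were matched to the RefSeq table (TAIR10.1) and 77 kept the file's name.

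One mean per group was fitted to all 8 arrays by lmFit and eBayes of limma 3.58.1 (R 4.3.3, 4 residual degrees of freedom), with Benjamini-Hochberg adjustment over 22810 probe sets. A call needed an adjusted p below 0.05 and, except for the difference between heat effects, 2-fold. The difference between heat effects is given for GH3.3 and GH9C2 with intervals only, although it had been planned as a test. Confidence intervals of 95% come from the moderated fit. Heat effects used the values as deposited. Translation efficiency at 38°C and the difference between heat effects used values with the factor divided out. The script was tested on simulated data. Python 3.11.15 with pandas 2.3.3 and matplotlib 3.10.9 was used for tables and figures. With 2 arrays per group, their number limits the precision. Replicates are called biological in the study's methods.

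By the study's methods, both RNA populations were prepared from 1 set of frozen seedling samples. Same-numbered arrays of the 2 populations deviated together from their group means (r = 0.786 at 22°C and 0.762 at 38°C across probe sets), and the seedling sample was used as a block in the paired fit (2 residual degrees of freedom).

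The members and lists were chosen with earlier results of these data known. Genes were named by a fixed rule: every GH3 and GH9 gene of the fixed lists with a named probe set, and of the other lists up to 2 rises and 2 falls called in total and then in polysome-bound mRNA. Further called genes were named where a count was 5 or fewer, after their values were seen. The 5 probe sets most like each gene were named by root mean square difference. Alternatives tried were median centring, cyclic loess, a filter on dim probe sets (highest group mean under 6), only the 4 arrays compared, the seedling sample or the replicate number as a block, the factor kept or divided out, and leaving out each array.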

Additional observations from a re-analysis of the deposited data

How the results depend on the processing

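Neither gene was called in translation efficiency at 22°C under any alternative run, and at 38°C only with the factor kept, where GH9C2 was at -1.035 (adjusted p = 0.00223, limma). Keeping the factor moves 0 away from the array average: GH3.3 was then at -0.235 at 38°C, and the differences between heat effects were -0.01 for GH3.3 and -0.66 for GH9C2. With the factor divided out the heat effects in polysome-bound mRNA were 2.05 for GH3.3 and -3.56 for GH9C2. Median centring, which shifted the median heat effect of all probe sets in total mRNA from 0.03 to 0.24, gave -3.55 for GH9C2 in total mRNA. Leaving out 1 array turned GH3.3 at 22°C positive without replicate 1 of total mRNA (0.07) or replicate 2 of polysome-bound mRNA (0.12).

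When each array was left out in turn, GH3.3 ranged from -0.575 to 0.125 in translation efficiency at 22°C, from 0.143 to 1.123 at 38°C and from 0.368 to 1.348 in the difference, and its heat effect from 0.705 to 1.685 in total and from 0.835 to 1.535 in polysome-bound mRNA. GH9C2 ranged from -0.56 to -0.19 at 22°C, from -0.303 to -0.0307 at 38°C and from 0.023 to 0.393 in the difference, and its heat effect from -3.925 to -3.605 and from -4.61 to -4.24.

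Counts over all probe sets moved more. With the seedling sample as replicate block, translation efficiency at 22°C had 8 higher and 157 lower calls against 0 and 0, that at 38°C 70 and 305 against 21 and 148, and the difference between heat effects 89 and 222 against 0 and 0. With the factor kept, 0 were higher and 6840 lower at 38°C, and 14691 were lower in the difference. At 38°C median centring gave 13 higher, only the 4 arrays compared gave 0 and 0, and leaving out any array gave 0 to 0 in both directions, as in translation efficiency at 22°C and in the difference, so the main 21 and 148 rest on all 8 arrays. In total mRNA, median centring gave 1070 lower, and leaving out arrays gave 867 to 1052 higher and 1205 to 1604 lower. In polysome-bound mRNA these refits gave 457 to 483 higher and 8013 to 8857 lower, and dividing out the factor gave 1079 higher and 1480 lower.

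Across temperatures the arrays share a replicate number, and the methods took the polysome content of 38°C over 22°C within each replicate, but no source used here says that the number marks a shared growth or day (r of deviations 0.522 in total and 0.438 in polysome-bound mRNA). A replicate block on that number cannot move the estimates of this balanced design (1.195 for GH3.3 in total mRNA), but the SE of GH3.3 there was 0.159 against 0.401. With this block 4 expansins fell in total mRNA instead of 3 and 1 xyloglucan enzyme instead of 0, and in polysome-bound mRNA 7 expansins fell instead of 5. Among the list genes, median centring put the polysome-bound falls of YUC6 (-0.95), YUC2 (-0.94) and XTH21 (-0.96) under 2-fold, and cyclic loess that of YUC2 (-0.97).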
